A study of Mus musculus with 16 samples.

Results

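The genes described here encode subunits of the receptors for the inhibitory transmitters GABA and glycine. They were taken by symbol from the deposited expression table: the GABA-A receptor subunits Gabrg1, Gabrb1, Gabra2 and Gabra4, the GABA-B receptor subunits Gabbr1 and Gabbr2, and the glycine receptor subunit Glra1. All 7 were found among the 39171 features of the table, and 6 of them passed the filter on low values (at least 1 FPKM in at least 4 libraries), with Glra1 below it. The libraries came from astrocytes of 4 C57BL/6 mice at postnatal day 15, sorted separately from thalamus and spinal cord. All mice had the genotype IL-33-mCherry (het)/Aldh1l1-GFP+. Each mouse gave an IL-33 reporter-positive and a reporter-negative library from each region, which made 16 libraries in 4 groups of 4. Every animal thus carried 1 copy of the mCherry reporter of the cytokine IL-33 and the GFP reporter of the astrocyte gene Aldh1l1, and no group lacked them. The sources used here do not say how GFP entered the sort.

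GABA-A receptors are chloride channels built as pentamers of subunits from several classes, and most hold alpha, beta and gamma subunits. Which alpha and gamma subunits are present sets their affinity for GABA and their sensitivity to drugs such as benzodiazepines. GABA-B receptors couple to G proteins and work as an obligate pair, in which the product of Gabbr1 binds GABA and that of Gabbr2 couples to the G protein and carries the complex to the cell surface. Glycine receptors are chloride channels as well, with alpha subunits such as that of Glra1 and the beta subunit encoded by Glrb. Astrocytes are known to respond to GABA through both receptor classes.

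In the GENCODE vM21 annotation of GRCm38 the 4 GABA-A genes lay in 1 cluster on chromosome 5 that spanned 1397991 bases. Gabrg1 occupied chr5:70751047-70842617, Gabra2 chr5:70957597-71095849 and Gabra4 chr5:71569749-71658308, all on the minus strand, and Gabrb1 occupied chr5:71658113-72149037 on the plus strand. Gabra4 and Gabrb1 stood head to head and shared 196 bases, of which 46 were exonic in both, or 0.756% of the exonic length of Gabra4 and 0.332% of that of Gabrb1. The sources used here do not say whether reads were counted by strand, so fragments from those bases cannot be assigned to either gene. Gabbr1 lay at chr17:37045966-37075067 on the plus strand, Gabbr2 at chr4:46662305-46991873 on the minus strand and Glra1 at chr11:55514238-55608198 on the minus strand.

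Promoter sequences are shown for a gene whose level followed the reporter, a gene of the same cluster whose level followed the region, and a GABA-B gene. Each run is the 250 bases before the start site in the RefSeq table of GRCm38.p6, read 5′ to 3′ on the gene's own strand, with capitals marking CpG dinucleotides. The Gabrg1 run covers chr5:70842618-70842867 on the minus strand, the Gabra2 run chr5:71095850-71096099 on the minus strand and the Gabbr1 run chr17:37045716-37045965 on the plus strand.
Gabrg1: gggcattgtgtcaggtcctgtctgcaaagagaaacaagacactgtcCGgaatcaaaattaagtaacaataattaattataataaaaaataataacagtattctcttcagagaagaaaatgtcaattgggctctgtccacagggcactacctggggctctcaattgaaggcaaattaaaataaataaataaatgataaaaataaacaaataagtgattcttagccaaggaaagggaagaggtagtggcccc
Gabra2: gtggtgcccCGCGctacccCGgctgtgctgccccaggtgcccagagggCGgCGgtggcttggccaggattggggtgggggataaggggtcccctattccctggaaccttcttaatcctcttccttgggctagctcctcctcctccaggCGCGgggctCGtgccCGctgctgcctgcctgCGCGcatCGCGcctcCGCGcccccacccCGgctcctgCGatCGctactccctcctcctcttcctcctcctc
Gabbr1: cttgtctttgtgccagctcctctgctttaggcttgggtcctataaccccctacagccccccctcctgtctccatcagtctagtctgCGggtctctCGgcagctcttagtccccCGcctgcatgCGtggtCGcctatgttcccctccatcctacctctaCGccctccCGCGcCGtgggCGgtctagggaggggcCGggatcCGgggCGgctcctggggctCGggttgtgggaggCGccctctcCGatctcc
The Gabrg1 run held 1 CpG at 35.6% GC, the Gabra2 run 18 at 70% GC and the Gabbr1 run 16 at 66.0% GC. Over the whole window, which adds 50 bases after the start, the counts were 3, 25 and 18. Of all 32851 such windows in the table, 23.3% held fewer CpG than that of Gabrg1, 81.6% fewer than that of Gabra2 and 70.3% fewer than that of Gabbr1. Neighbours in the cluster thus had promoters of unlike base composition, which is a description only.

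Values are in FPKM, a count of fragments set relative to transcript length and to library size, so levels can be set beside each other between genes. Differences are on the scale of log2(FPKM + 1) and come with a standard error and an adjusted p from limma over all 16340 features tested. In bulk libraries, fewer cells of a type and less RNA per cell cannot be told apart. Sequencing depth is unknown, because low values showed no whole-read steps, and 13260 to 14731 features reached 1 FPKM per library. Il33 itself lay at 13.3 to 26.9 FPKM in thalamus negative and 23.8 to 31.98 FPKM in thalamus positive libraries, and at 19.98 to 36.5 and 24.6 to 31.2 FPKM in those of the spinal cord, so its level overlapped between the gates. The 13 astrocyte markers were detected in every group, with summed levels of 6179 to 8473 FPKM in thalamus negative, 5293 to 6337 in thalamus positive, 8249 to 10086 in spinal cord negative and 9848 to 10888 in spinal cord positive libraries. Oligodendrocyte and neuronal markers were higher in the negative libraries. In thalamus the 12 oligodendrocyte genes summed to 454 to 975 FPKM in negative against 78.2 to 115 FPKM in positive libraries. In spinal cord they summed to 3539 to 3630 against 157 to 171 FPKM. The 13 neuronal genes summed to 87.9 to 126 FPKM in negative against 22.7 to 32.3 FPKM in positive thalamus libraries, and to 63.6 to 93.0 against 30.4 to 42.9 FPKM in the spinal cord. No gene of these 3 lists was at 0 in all libraries. The 9 ependymal genes summed to 332 to 612 FPKM in negative against 6.86 to 8.57 FPKM in positive thalamus libraries. In spinal cord their sums were 110.0 to 156 against 3.97 to 6.71 FPKM. Sums of oligodendrocyte precursor, inhibitory neuron, endothelial and mural markers were also higher in the negative libraries of both regions, without overlap. Those of microglia overlapped between the gates. Other-cell markers also differed between the regions in negative libraries. There 12 of 12 oligodendrocyte and 5 of 8 oligodendrocyte precursor genes were higher in the spinal cord and 7 of 9 ependymal genes lower, the last with sums of 332 to 612 FPKM in thalamus and 110.0 to 156 FPKM in spinal cord. What other cells contributed to the differences between the gates, or between the regions in negative libraries, was not tested.

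Some receptor genes were called between the gates and others between the regions, and only Gabbr1 and Gabbr2 in both kinds of comparison. In positive cells of the spinal cord Gabrg1, Gabrb1 and Gabbr2 rose and Gabbr1 fell, while in the thalamus Gabrg1 alone of the 6 passed the test. Gabra2 and Gabra4 were higher in the spinal cord than in the thalamus, and Gabbr1 and Gabbr2 lower, in both gates. Of the 6 tested genes, 1 was called between the gates of the thalamus, where 25.2% of all features tested were (11.6% higher and 13.6% lower in positive cells), so this share did not stand above that of all features. Between the gates of the spinal cord 4 were called, 3 higher and 1 lower, where 19.6% of all features were (9.04% higher and 10.5% lower). Between the regions 4 were called in negative libraries, 2 higher and 2 lower in the spinal cord, against 9.81% of all features (5.27% higher and 4.54% lower). In positive libraries 4 were called as well, 2 in each direction, against 6.1% of all features (4.22% higher and 1.88% lower). None of the 6 was called for a difference of the gate effect between the regions, where 2.56% of all features were. Their median differences were 0.08 and 0.51 for the thalamus and spinal cord gates, against 0.06 and 0.09 over all features tested. The members were chosen with earlier results of these data known, so these counts and medians cannot show an excess over all features.

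**Figure D1:**
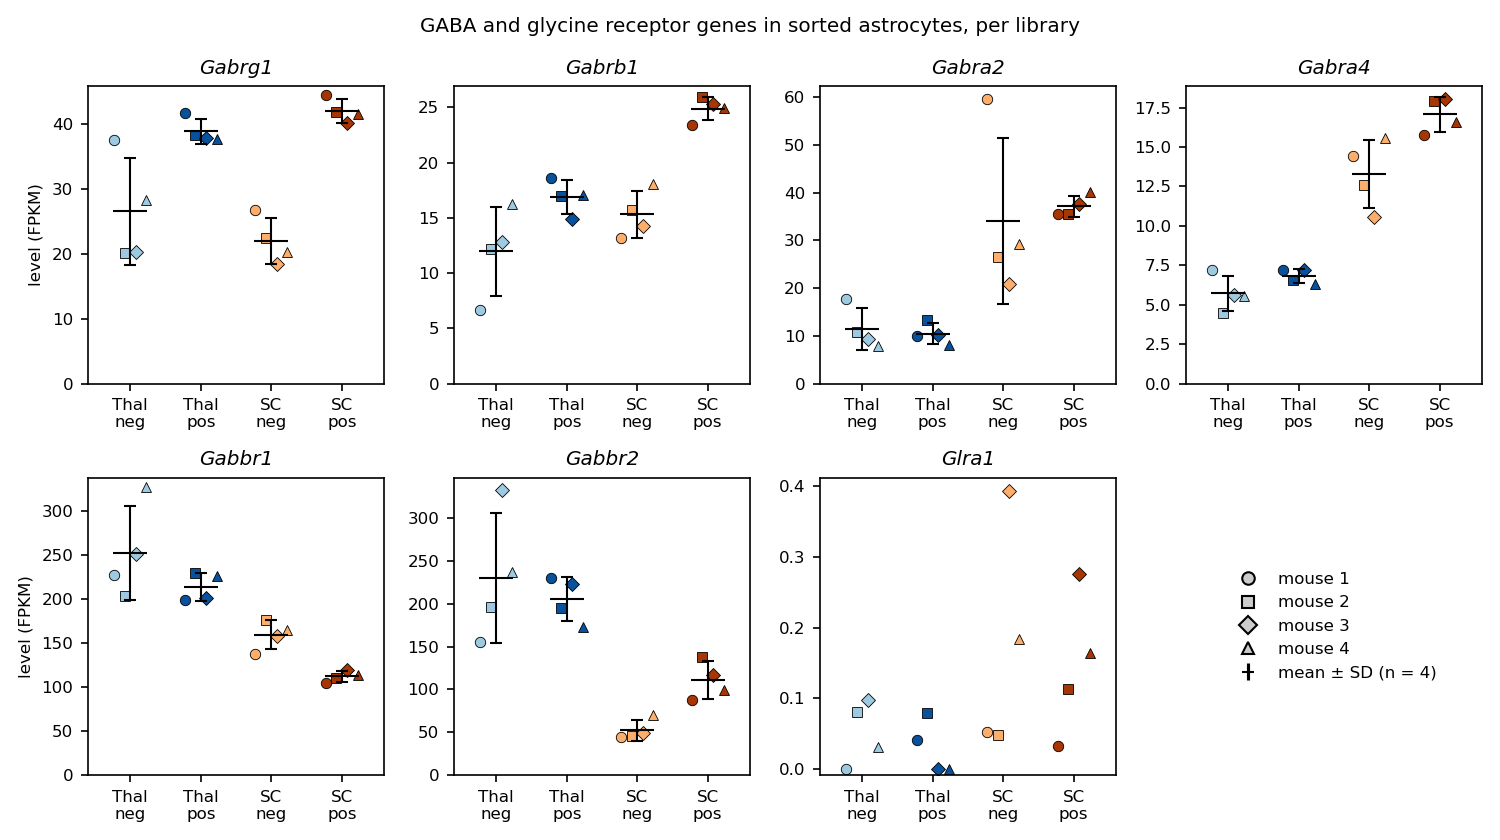
Level of each receptor gene in FPKM (vertical axes) in the 16 libraries, with 1 point per mouse and bars for the mean and SD of each group except for Glra1, which is listed at 0 in 3 libraries (Thal, thalamus; SC, spinal cord; neg and pos, the gates). Gabrg1 stands higher in the positive groups (means of 38.9 and 42.1 FPKM), and Gabra2 and Gabra4 stand higher in both spinal cord groups.

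Gabrg1 encodes a gamma subunit, the class that gives GABA-A receptors most of their benzodiazepine sensitivity. In thalamus negative libraries of mice 1 to 4 it was at 37.6, 20.1, 20.4 and 28.3 FPKM (26.6 ± 8.26, SD, n = 4), and thalamus positive libraries had 41.8, 38.3, 37.9 and 37.7 FPKM (38.9 ± 1.93, SD, n = 4). The negative gate of the spinal cord gave 26.7, 22.5, 18.5 and 20.3 FPKM (22.0 ± 3.56, SD, n = 4), and the positive gate 44.6, 41.9, 40.2 and 41.6 FPKM (42.1 ± 1.83, SD, n = 4). The gates did not overlap in either region, although the negative thalamus library of mouse 1 lay just under the lowest positive one. Positive cells of the spinal cord had a rise of 0.92 ± 0.18 (SE, log2; adjusted p = 0.00232). That call held in all 29 alternative settings, with an adjusted p of at most 0.0373. In the thalamus the rise was 0.58 ± 0.18 (adjusted p = 0.0300).

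The thalamus call of Gabrg1 was not stable, since it was lost in 10 of the 29 alternatives. Leaving out the negative library of mouse 2 or 3 gave an adjusted p of 0.0772 or 0.0836, and leaving out the positive library of mouse 1, 2, 3 or 4 gave 0.0747, 0.0575, 0.0602 or 0.0578. Between the regions Gabrg1 did not pass the test: spinal cord minus thalamus was -0.23 (95% confidence interval -0.61 to 0.16) in negative and 0.11 (-0.28 to 0.50) in positive libraries. The order of its levels was spinal cord positive, thalamus positive, thalamus negative and spinal cord negative, and the neighbours within each gate overlapped. In the authors' deposited table of positive against negative libraries, which holds 444 features, Gabrg1 was the only one of the 7 genes. It had a log2 fold change of 0.65, a standard error of 0.16 and an adjusted p of 0.00033. The largest adjusted p in that table was 0.00976, and it gives no separate fold change for each region. Genes with a larger adjusted p may be missing from it. The absence of the other genes therefore does not show that they did not differ.

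Gabrb1 encodes a beta subunit, part of the interface where GABA binds. Thalamus negative libraries had 6.62, 12.1, 12.8 and 16.3 FPKM (12.0 ± 3.99, SD, n = 4), against 18.6, 17.0, 14.9 and 17.0 FPKM in thalamus positive ones (16.9 ± 1.51, SD, n = 4). In spinal cord negative libraries it was at 13.2, 15.7, 14.3 and 18.1 FPKM (15.3 ± 2.11, SD, n = 4), and in positive ones at 23.4, 25.9, 25.3 and 24.9 FPKM (24.9 ± 1.07, SD, n = 4). Its level was higher in the positive library in 4 of 4 mice in both regions, and the groups overlapped in the thalamus but not in the spinal cord. The rise in spinal cord was 0.67 ± 0.20 (SE, log2; adjusted p = 0.0308). The thalamus difference of 0.52 ± 0.20 did not pass (adjusted p = 0.0746).

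Of the 29 alternatives, 9 ended the spinal cord call of Gabrb1, among them leaving out the negative library of mouse 1 or 3 (adjusted p = 0.0733 or 0.0660) or the positive library of mouse 1, 2, 3 or 4 (0.0554, 0.0737, 0.0708 or 0.0689). Leaving out the thalamus negative library of mouse 4 brought the thalamus difference to 0.68, which passed (adjusted p = 0.0237). In positive cells Gabrb1 was higher in every spinal cord library than in any thalamus library, and the difference of 0.54 ± 0.20 did not pass (adjusted p = 0.160). It passed without the thalamus negative library of mouse 1 (adjusted p = 0.0217) and when the 2 groups were fitted alone (0.00378). Spinal cord positive was the highest group, and the other 3 overlapped with their neighbours in order.

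Gabra2 and Gabra4 encode alpha subunits, which form the other side of the GABA site, and both were called between the regions and not between the gates. Gabra2 was at 17.7, 10.8, 9.41 and 7.84 FPKM in thalamus negative libraries (11.4 ± 4.37, SD, n = 4), against 9.99, 13.4, 10.2 and 8.17 FPKM in thalamus positive ones (10.4 ± 2.17, SD, n = 4). The spinal cord had 59.7, 26.6, 20.8 and 29.3 FPKM in the negative gate (34.1 ± 17.4, SD, n = 4) and 35.5, 35.5, 37.5 and 40.2 FPKM in the positive gate (37.2 ± 2.22, SD, n = 4). No spinal cord library fell as low as a thalamus library, and within each region the gates overlapped. Gabra2 was higher in the spinal cord by 1.44 ± 0.29 (SE, log2; adjusted p = 0.00451) in negative and by 1.75 ± 0.29 (adjusted p = 0.00159) in positive libraries.

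The positive call of Gabra2 held in all 29 alternatives, and the negative one was lost when the 2 groups were fitted alone (adjusted p = 0.114) and without mouse 4 (0.0563). Between the gates its difference was -0.08 (95% confidence interval -0.69 to 0.53) in the thalamus, a value whose sign turned in 4 alternatives, and 0.23 (-0.38 to 0.85) in the spinal cord. The negative library of mouse 1 was the highest of its group in both regions. Without both of these libraries the spinal cord difference of Gabra2 was 0.53 and passed (adjusted p = 0.0414).

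Gabra4, whose product occurs mainly in extrasynaptic receptors of neurons, was at 7.18, 4.44, 5.64 and 5.57 FPKM in thalamus negative libraries (5.71 ± 1.13, SD, n = 4), against 7.17, 6.58, 7.19 and 6.29 FPKM in positive ones (6.81 ± 0.445, SD, n = 4). Spinal cord libraries had 14.4, 12.6, 10.6 and 15.6 FPKM in the negative gate (13.3 ± 2.18, SD, n = 4) and 15.7, 17.9, 18.0 and 16.6 FPKM in the positive gate (17.1 ± 1.10, SD, n = 4). Every spinal cord value exceeded every thalamus value. The difference was 1.09 ± 0.16 (SE, log2; adjusted p = 3.47e-04) in negative and 1.21 ± 0.16 (adjusted p = 2.05e-04) in positive libraries, and the latter held in all 29 alternatives. With the 2 negative groups fitted alone the former gave an adjusted p of 0.0528. In the spinal cord all 4 positive libraries lay above the negative ones, but the gate difference of 0.35 (95% confidence interval 0.02 to 0.68) did not pass (adjusted p = 0.133), nor did that of 0.23 (-0.10 to 0.57) in the thalamus (adjusted p = 0.296).

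**Figure D2:**
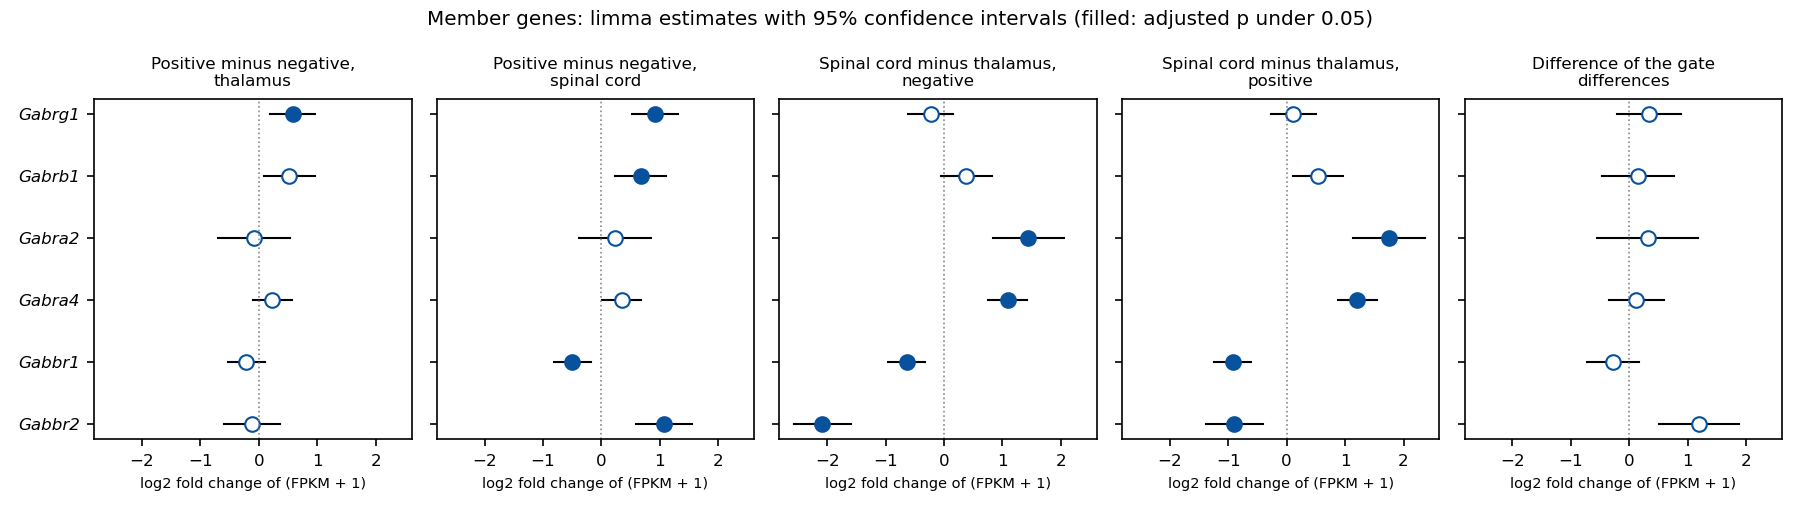
Difference between group means of log2(FPKM + 1) for the 6 tested genes (rows) in the 5 comparisons (panels). Bars give the 95% confidence interval of limma, and filled points have an adjusted p under 0.05. The last panel shows the difference of the gate differences. Gabrg1 lies above 0 in both gate comparisons, Gabra2 and Gabra4 lie above 0 and Gabbr1 and Gabbr2 below 0 in both comparisons of the regions.

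Among all 19 GABA-A subunits in the table, 8 had a group mean of at least 2 FPKM, 7 stayed under 1 FPKM in every library and 2 were listed at 0 throughout. Summed over the 19, the level was 88.7 ± 8.68 FPKM in thalamus negative, 95.6 ± 3.23 in thalamus positive, 108 ± 21.8 in spinal cord negative and 141 ± 3.21 in spinal cord positive libraries (SD, n = 4 each). The 4 genes of the chromosome 5 cluster made up 62.5% ± 6.88, 76.3% ± 2.13, 78.1% ± 4.80 and 86.1% ± 1.49 of that sum (SD, n = 4). Gabrg1 had the largest mean share in both thalamus groups and in spinal cord positive libraries, at 29.6%, 40.7% and 29.9%. In spinal cord negative libraries Gabra2 was first with 30.4%, and Gabrg1 had 20.6%. These shares are a description of transcript levels, with no test.

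**Figure D3:**
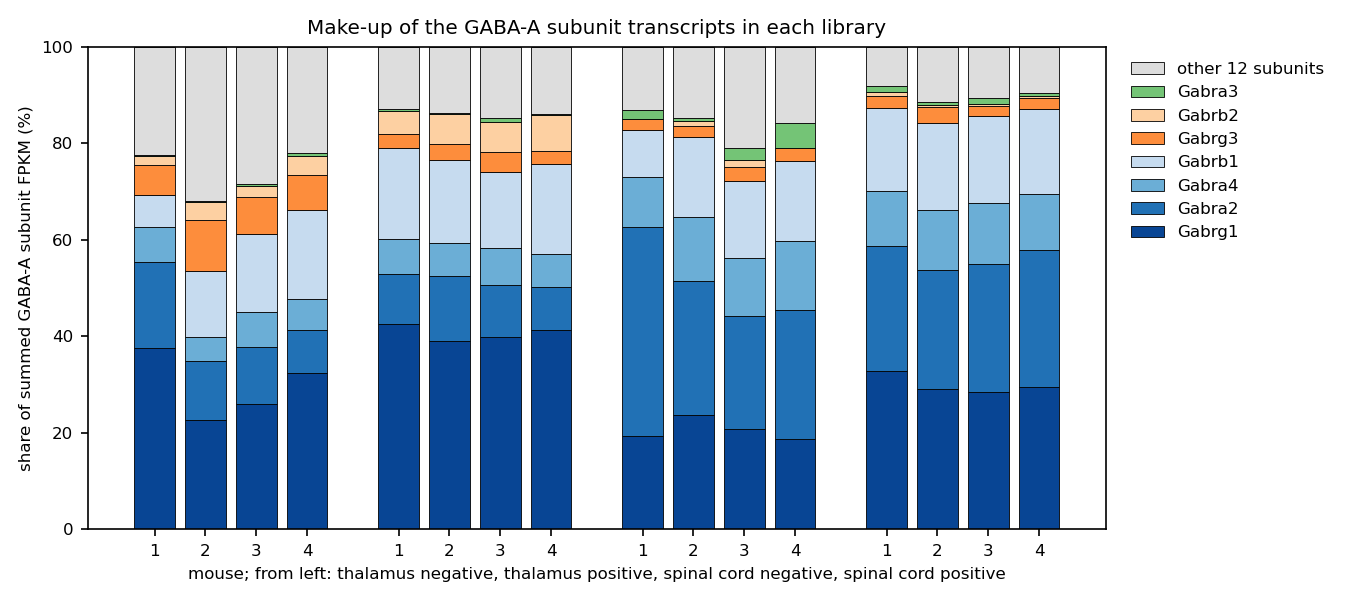
Share of each subunit, in percent of the summed GABA-A subunit level, with 1 stacked bar per library, numbered by mouse within the 4 groups. The cluster on chromosome 5 (blue) takes a mean of 62.5% in thalamus negative and 86.1% in spinal cord positive libraries.

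Among subunits outside the 7 genes that reached a mean of 2 FPKM, Gabrg3, Gabrb2 and Gabra3 differed in the thalamus or between the regions. Gabrg3, another gamma subunit, fell in thalamus positive cells from 7.04 ± 1.65 to 3.15 ± 0.621 FPKM (SD, n = 4), by 0.95 ± 0.19 (SE, log2; adjusted p = 0.00215). Gabrb2, another beta subunit, rose there from 2.58 ± 0.788 to 5.88 ± 0.873 FPKM (SD, n = 4), by 0.96 ± 0.24 (adjusted p = 0.0106), and a pseudocount of 0.1 ended that call (0.0850). Without mouse 3 the call of Gabrb2 was lost as well (adjusted p = 0.0641). In the spinal cord none of these 3 was called between the gates.

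Gabrb2 was low in the spinal cord, with 0.659 ± 0.541 FPKM in the negative and 0.763 ± 0.319 FPKM in the positive gate (SD, n = 4), lower than in thalamus by 1.14 ± 0.24 (SE, log2; adjusted p = 0.00735) and 1.97 ± 0.24 (1.42e-04). Gabrg3 was lower in the negative spinal cord libraries than in those of the thalamus, at 2.78 ± 0.343 FPKM, by 1.07 ± 0.19 (adjusted p = 0.00165). Gabra3 had means of 0.332 and 2.64 FPKM in the negative groups of thalamus and spinal cord, a difference of 1.28 ± 0.34 (adjusted p = 0.0253). The Gabra3 call was lost on leaving out the spinal cord negative library of mouse 4 (adjusted p = 0.0557) or the thalamus negative library of mouse 1 or 2 (0.0502 or 0.0552). Fitting the 2 negative groups alone ended all 3 calls in negative cells, with adjusted p of 0.120 for Gabrb2, 0.0744 for Gabrg3 and 0.192 for Gabra3. That of Gabrb2 was also lost without mouse 2 or 4 (0.0541 or 0.103), and that of Gabra3 without mouse 4 (0.0866).

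**Figure D4:**
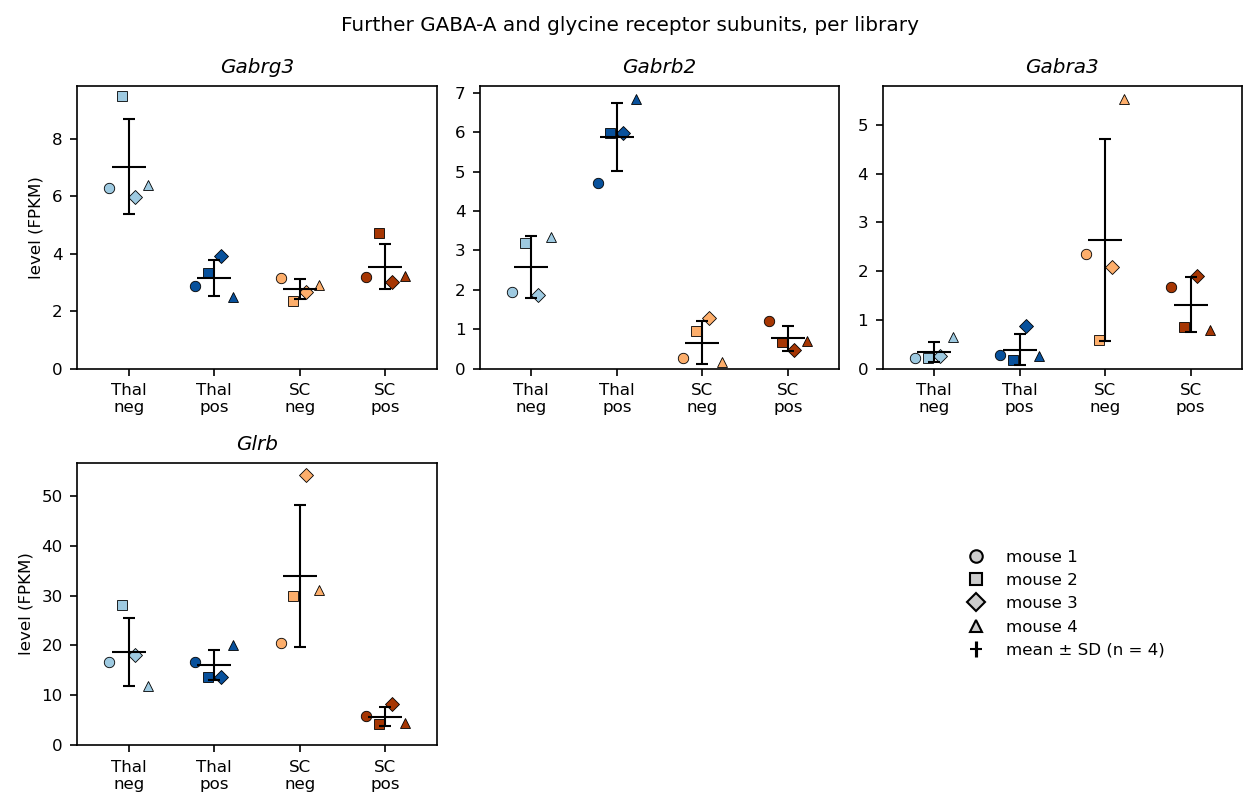
Level in FPKM of Gabrg3, Gabrb2, Gabra3 and Glrb, by group, with 1 point per mouse and bars for the mean and SD (n = 4). Gabrb2 stands highest in thalamus positive libraries, at 4.72 to 6.84 FPKM, and Glrb lowest in spinal cord positive ones, at 4.26 to 8.25 FPKM.

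Both GABA-B subunits had a higher mean level than any of the 4 GABA-A genes in each group, and both were lower in the spinal cord than in the thalamus. Gabra2 exceeded Gabbr2 in 1 library, the spinal cord negative one of mouse 1. Gabbr1 was at 227, 203, 251 and 327 FPKM in thalamus negative libraries (252 ± 53.6, SD, n = 4), against 199, 229.9, 201 and 226 FPKM in positive ones (214 ± 16.3, SD, n = 4). Spinal cord values were 137, 177, 158 and 165 FPKM in the negative gate (159 ± 16.6, SD, n = 4) and 104, 111, 119 and 114 FPKM in the positive gate (112 ± 6.16, SD, n = 4). Neither the regions nor the spinal cord gates overlapped. Gabbr1 was lower in the spinal cord by 0.64 ± 0.15 (SE, log2; adjusted p = 0.0114) in negative and by 0.92 ± 0.15 (adjusted p = 0.00126) in positive libraries, the second of which held in all 29 alternatives. The first was lost in 4 alternatives, with an adjusted p of up to 0.148.

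Within the spinal cord Gabbr1 fell in positive cells by 0.50 ± 0.15 (SE, log2; adjusted p = 0.0270), and in the thalamus the difference of -0.22 (95% confidence interval -0.53 to 0.10) did not pass. In 10 of the 29 alternatives the spinal cord call was lost. Those that left out 1 library were the negative library of mouse 2, 3 or 4 (adjusted p = 0.0673, 0.0511 or 0.0572) and the positive library of mouse 1, 2 or 4 (0.0751, 0.0641 or 0.0581).

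Gabbr2 was at 156, 196, 333 and 237 FPKM in thalamus negative libraries (231 ± 75.9, SD, n = 4), against 230.4, 196, 223 and 173 FPKM in positive ones (206 ± 26.2, SD, n = 4). Spinal cord values were 44.2, 46.0, 49.1 and 70.4 FPKM in the negative gate (52.4 ± 12.2, SD, n = 4) and 88.2, 138, 117 and 99.5 FPKM in the positive gate (111 ± 21.9, SD, n = 4). The spinal cord negative libraries were the lowest of all, and every positive one lay above them and below the thalamus. The rise in positive cells of the spinal cord was 1.07 ± 0.23 (SE, log2; adjusted p = 0.00402), and it missed the threshold only without mouse 2 (0.0577). In the thalamus the difference was -0.12 (95% confidence interval -0.60 to 0.37), a value whose sign turned in 2 alternatives.

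From thalamus to spinal cord Gabbr2 was lower by 2.08 ± 0.23 (SE, log2; adjusted p = 2.97e-05) in negative cells, a call that held in all 29 alternatives, and by 0.90 ± 0.23 (adjusted p = 0.0293) in positive cells. The latter was lost in 10 alternatives. Among these were those without the spinal cord positive library of mouse 1, 3 or 4 (adjusted p = 0.101, 0.0619 or 0.0826) and without the thalamus positive library of mouse 1, 2 or 3 (0.0837, 0.0614 or 0.0880).

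Since the product of each GABA-B gene needs the other, their ratio was taken in each library. Gabbr2 to Gabbr1 was 0.926 ± 0.295 in thalamus negative, 0.973 ± 0.192 in thalamus positive and 0.989 ± 0.185 in spinal cord positive libraries (SD, n = 4 each). In spinal cord negative libraries it was 0.322, 0.260, 0.310 and 0.427 in mice 1 to 4, all below the lowest value elsewhere, 0.686. The ratio combines the Gabbr1 and Gabbr2 differences given above and was not tested separately.

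**Figure D5:**
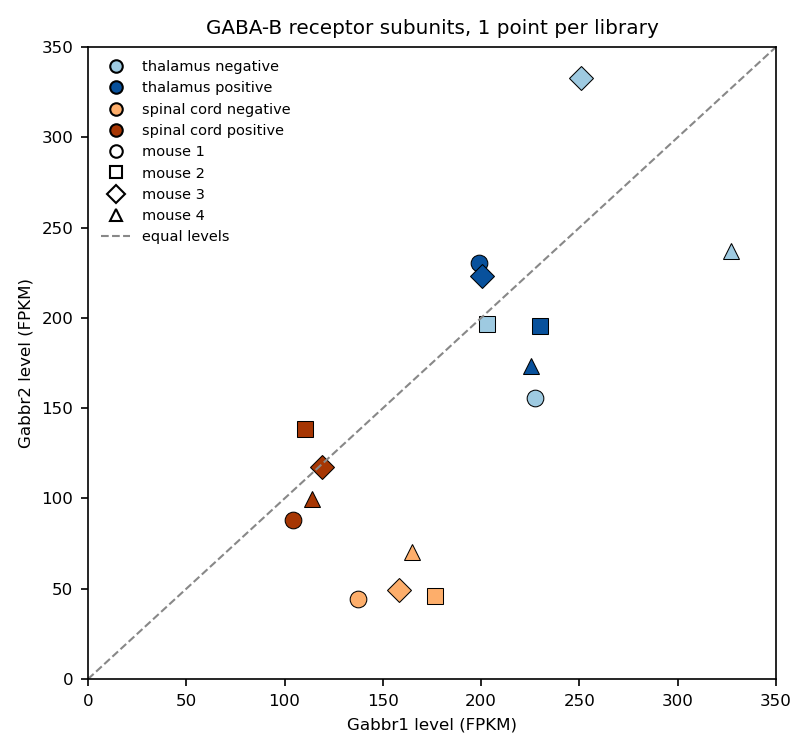
Gabbr2 against Gabbr1 in FPKM, with 1 point per library coloured by group and shaped by mouse, and a dashed line of equal levels. The 4 spinal cord negative libraries have a Gabbr2 to Gabbr1 ratio of 0.260 to 0.427, and all other libraries lie at 0.686 or above.

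Glra1, an alpha subunit of the glycine receptor known mainly from neurons of the spinal cord and brainstem, was near the floor in all groups. It was listed at 0, 0.0810, 0.0981 and 0.0313 FPKM in thalamus negative and at 0.0414, 0.0790, 0 and 0 FPKM in thalamus positive libraries. Spinal cord negative libraries had 0.0524, 0.0482, 0.393 and 0.184 FPKM, and positive ones 0.0323, 0.114, 0.277 and 0.165 FPKM. All groups overlapped, and the highest values came from the spinal cord of mouse 3. The antisense gene Gm12236 covers 141 exonic bases of Glra1 (5.84%), whose fragments cannot be told apart without strand. In two-sided exact permutation tests over samples, which cannot go below p = 0.0286, the regions gave p = 0.229 in negative and p = 0.0857 in positive libraries. Between the gates the exact p was 0.486 for the thalamus and 0.800 for the spinal cord, and no value passed after adjustment over these 4 tests (lowest adjusted p = 0.343).

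Of the other 4 glycine receptor subunits, 1 was tested. This was Glrb, the beta subunit, whose level was low only in spinal cord positive libraries. It was at 16.6, 28.0, 18.0 and 11.8 FPKM in thalamus negative and 16.6, 13.7, 13.6 and 20.1 FPKM in thalamus positive libraries. The spinal cord had 20.5, 29.9, 54.2 and 31.1 FPKM in the negative gate and 5.83, 4.26, 8.25 and 4.45 FPKM in the positive gate. The fall in positive spinal cord cells was 2.34 ± 0.30 (SE, log2; adjusted p = 6.42e-05), with no overlap of the gates. Glrb was also lower in spinal cord than in thalamus in positive cells, by 1.37 ± 0.30 (adjusted p = 0.0118), a call lost without mouse 1, 2 or 4 (0.0561, 0.0764 or 0.130). Its gate difference differed between the regions by -2.18 ± 0.42 (adjusted p = 0.0118), and that call was lost without mouse 2, 3 or 4 (0.0675, 0.0609 or 0.177). Oligodendrocyte and neuronal marker sums fell with Glrb in the spinal cord, as given above, and their part in it was not tested.

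For the 6 tested genes themselves the gate effects were not shown to differ between the regions. The value of Gabbr2 was the largest, at 1.19 (95% confidence interval 0.50 to 1.87; adjusted p = 0.0699). It passed in 3 alternatives: when the spinal cord negative library of mouse 4 was left out (adjusted p = 0.0416), without the thalamus negative library of mouse 1 (0.0233) and without both negative libraries of mouse 1 (0.0353). The other 5 had values of -0.28 for Gabbr1 to 0.34 for Gabrg1, with adjusted p of 0.587 to 0.871.

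Genes that act with these receptors were counted from lists of the pathway, which were also chosen with earlier results of these data known. Over all features tested, 11.6% were called higher and 13.6% lower in positive cells of the thalamus. In the spinal cord these shares were 9.04% and 10.5%. Of the GABA-B auxiliary subunits and effectors, 8 of 14 were tested; in positive thalamus cells 1 rose and 4 fell (median -0.98), and in positive spinal cord cells 0 rose and 4 fell (median -0.80). The G protein subunit Gnai1 fell by 1.85 in thalamus and by 2.57 in spinal cord (log2; adjusted p = 3.35e-05 and 1.19e-06). Gnao1, another such subunit, fell by 1.57 and 1.54 (adjusted p = 0.00837 and 0.0114), calls lost without mouse 3 in thalamus (0.0518) and without mouse 1 in spinal cord (0.0795). The potassium channel subunit Kcnj3 fell by 1.58 and 1.72 (adjusted p = 0.00330 and 0.00197). Of the 16 anchoring and trafficking genes, all tested, 2 rose and 5 fell in the thalamus (median -0.54), and 1 rose and 4 fell in the spinal cord (median -0.34). Gphn, the scaffold gephyrin that holds glycine and GABA-A receptors at synapses and also makes the molybdenum cofactor, rose in both regions. Its mean went from 7.97 ± 1.88 to 13.9 ± 1.11 FPKM in the thalamus (0.75 ± 0.18, SE, log2; adjusted p = 0.00723) and from 7.92 ± 2.11 to 13.8 ± 0.750 FPKM in the spinal cord (0.76 ± 0.18; adjusted p = 0.00823). Leaving out a whole mouse ended the Gphn call for 2 of the mice in thalamus and 3 of them in spinal cord, with adjusted p of up to 0.0716.

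Slc6a9, a glycine transporter, was higher in the spinal cord than in the thalamus in positive cells, by 1.49 ± 0.34 (adjusted p = 0.0167), a call lost without the positive library of mouse 3 in the spinal cord (0.0614) or of mouse 2 or 3 in the thalamus (0.0590 or 0.05004). Of the GABA and glycine metabolism genes, 12 of 13 were tested; 5 fell and 0 rose in the thalamus (median -0.67), and none passed in the spinal cord (median -0.03). Maob, a monoamine oxidase that also serves GABA synthesis from putrescine, fell in the thalamus by 1.19 ± 0.21 (adjusted p = 9.41e-04), and Abat, the enzyme that degrades GABA, by 1.00 ± 0.22 (adjusted p = 0.00490). The Abat call was lost without mouse 3 or 4 (0.0586 or 0.0545). Of the chloride transporters and channels, 8 of 10 were tested. Among them 1 fell and 0 rose in the thalamus, and 1 rose and 2 fell in the spinal cord. Of all features tested, 25.2% were called between the gates of the thalamus and 19.6% between those of the spinal cord. Slc12a2, the importer that raises chloride inside the cell, fell in both, by 1.27 (adjusted p = 2.63e-04) and 2.38 (adjusted p = 5.93e-07). The oligodendrocyte, ependymal and neuronal marker sums were lower in positive cells too, and their part in these falls was not tested.

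Between the regions, where 9.81% of all features were called in negative and 6.1% in positive cells, the pathway counts were as follows. In negative cells 1 effector was higher in the spinal cord and 0 lower, 1 anchoring gene was higher and 2 lower, 2 metabolism genes were lower, and 1 chloride gene was higher. In positive cells 1 effector and 1 anchoring gene were lower, and 1 transporter, 1 metabolism gene and 1 chloride gene were higher.

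Across the 16 libraries, the genes whose pattern was most like that of each member were ranked by Pearson's r on the log2 scale among 9938 features with a mean of at least 2 FPKM. For Gabra2 they were Dock5 (r = 0.958), Dld (0.958) and Hpgd (0.945), and for Gabra4 they were Thbs2 (0.978), Hoxa9 (0.956) and Dock5 (0.954). Gabrb1 was most like Wnt7b (0.946), Kirrel3 (0.932) and Plod1 (0.930), and Gabrg1 most like Folh1 (0.938), Bai3 (0.933) and Nudcd2 (0.933). Gabbr1 stood closest to Galnt16 (0.921), Car8 (0.912) and Iqgap2 (0.905), and Gabbr2 to Grm3 (0.925), Hes5 (0.917) and Lpcat1 (0.914). Among the members themselves r was 0.921 for Gabra2 with Gabra4, 0.586 for Gabbr1 with Gabbr2, 0.414 for Gabrb1 with Gabrg1 and 0.113 for Gabra2 with Gabrg1. These points share 4 mice and fall into 4 groups, so the correlations describe the group pattern and carry no p.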

How the data were processed

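RNA from astrocytes sorted by the IL-33 reporter was measured in 16 libraries, 4 mice by 2 regions by 2 gates, prepared with a Qiagen RNeasy plus micro kit and NuGEN RNA-Seq V2, per the labels' protocols. The submitters' processing notes list the genome build GRCm38 and, without roles, DESeq2, HTSeq 0.6.1p1, Bowtie2 2.2.3, TopHat2 2.0.11, Cufflinks, Cuffnorm and FastQC. The deposited table holds FPKM per feature and library. A comparison table of positive against negative libraries, also deposited by the authors, holds p-values and adjusted p-values, test scores, log2 fold changes and their errors, a base mean (signal) and group means of FPKM.

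From the FPKM, log2(FPKM + 1) was modelled in limma 3.58.1 (R 4.3.3), with a trended prior and a coefficient for each of the 4 groups in all 16 libraries, for the 16340 of 39171 features at 1 FPKM or more in at least 4 libraries. Calls had a Benjamini-Hochberg adjusted p under 0.05 over all tested features. Glra1, below that filter, was compared by exact permutation, two-sided, over 70 splits. The fit was tested on simulated data. A mouse number marks 1 animal, per the labels, so the numbers pair the libraries; the 24 same-mouse pairs had a mean correlation of deviations from the group means of 0.04, and other pairs -0.01. Replicates of a group are separate mice, and 0 pairs of libraries were identical. Alternatives were a pseudocount of 0.1 or 0.5, no filter, a filter at 5 FPKM, median-of-ratios rescaling, only the groups compared, no trend, the mouse as a block, each library or mouse left out, and, chosen after seeing the data, both negative libraries of mouse 1 left out. Beyond the members, up to 3 called genes per list, comparison and direction with the largest difference could be named, subunits with a group mean of at least 2 FPKM, and the 3 features most like each member in pattern. Results of some list genes are not reported here. The members and lists were chosen with earlier results of these data known.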

Additional observations from a re-analysis of the deposited data

Results flagged for a closer look

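In 5 of 48 groups of 4 libraries, 1 library stood apart from the other 3 of its group by a gap that is large against the group's range; chance gives about 1 in 20 such groups. For Gabrg1 this was the thalamus positive library of mouse 1, at 41.8 FPKM against 37.7 to 38.3. For Gabrg3 it was mouse 2 in the thalamus negative group, at 9.50 FPKM against 5.97 to 6.39, and in the spinal cord positive group, at 4.72 FPKM against 3.03 to 3.24. For Gabra3 it was mouse 4 in the thalamus negative group, at 0.641 FPKM against 0.212 to 0.255, and mouse 3 in the thalamus positive group, at 0.865 FPKM against 0.168 to 0.275.

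The gate effect of 4 pathway genes differed between the regions in the test of the difference itself (spinal cord minus thalamus, limma), where 2.56% of all features were called. They are named because they were called. They were 1 of 4 other GABA-A subunits tested, 1 of 1 other glycine receptor subunit, 1 of 8 GABA-B effectors and 1 of 8 chloride genes. None was called of the 6 members, 16 anchoring genes, 3 transporters and 12 metabolism genes tested. Glrb had -2.18 on the log2 scale (adjusted p = 0.0118), Cacna1a, a subunit of a neuronal calcium channel, -1.70 (adjusted p = 0.0267), and Slc12a2 -1.12 (adjusted p = 0.0402). The Slc12a2 call was lost with the mouse as a block (adjusted p = 0.0726) and in 19 of 28 alternatives in all, with an adjusted p of up to 0.233. Those that left out 1 library were each positive library of either region, the spinal cord negative library of mouse 1, 2 or 4 and the thalamus negative library of mouse 2 or 4 (0.0589 to 0.103). The Cacna1a call was lost in 12 of 28, with an adjusted p of up to 0.219. For this gene they included the spinal cord positive library of mouse 1, 2 or 3 (0.0548, 0.0645 or 0.0670), the thalamus positive library of mouse 1, 2 or 4 (0.0522, 0.0649 or 0.0574), the spinal cord negative library of mouse 3 (0.0502) and the thalamus negative library of mouse 4 (0.0542). The Glrb call was lost without all libraries of mouse 2, 3 or 4 (0.0675, 0.0609 or 0.177). Gabrg3 had 1.20 (adjusted p = 0.0245), and that call was lost in 8 of 28 alternatives, among them leaving out the spinal cord positive library of mouse 1 or 2 (0.0507 or 0.0670) or the thalamus positive library of mouse 1 or 4 (0.0603 or 0.0686).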

How the results depend on the processing

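Over the 6 tested receptor genes, 802 of 864 values kept their direction and their side of the threshold, 47 lost a call, 8 gained one and 7 changed sign. Part of the sameness of direction was fixed in advance. Leaving out a library of a group not compared could change the adjusted p but not the difference. The same holds for the mouse as a block, no trend and the fit on only the groups compared. Signs changed for values that did not pass the test. For Gabra2 between the thalamus gates the range with 1 library or mouse left out was -0.22 to 0.15, and the value was 0.14 without both negative libraries of mouse 1. The same ranges were -0.34 to 0.078 for Gabbr2 in the thalamus, -0.0052 to 0.40 for Gabrb1 in the difference of the gate effects, and -0.0655 to 0.0523 FPKM for Glra1 in the spinal cord gates. With only the groups compared in the fit, 0 members were called between the thalamus gates, 1 member and 353 features between the regions in negative cells, and 4227 features in positive cells. At 5 FPKM, 271 features differed in gate effect between the regions. Without both negative libraries of mouse 1, the latter were 797 features and 1 member, and 1645 features were called between the regions in positive cells. With 1 library or mouse left out, the thalamus gates had 2174 to 4784 features and 0 to 2 members called, the spinal cord gates 1818 to 3895 and 1 to 4, the regions in negative cells 882 to 1752 and 2 to 4, the regions in positive cells 351 to 1398 and 3 to 5, and the difference of the gate effects 66 to 615 and 0 to 1. A fit with fewer libraries has fewer degrees of freedom; the cause was otherwise not tested. The replicate block pairing the libraries of a mouse called 1, 4, 4, 4 and 0 members, as without it, and 4107, 3205, 1541, 981 and 343 features. It ended 3 calls, of Plcl1, Gnai1 and Slc12a2, at adjusted p of 0.0565 (thalamus gates), 0.0559 (regions, negative cells) and 0.0726, and changed no other call of a named gene. Depth is unknown, so values under 1 FPKM, such as those of Glra1, have no counting interval.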

Other observations

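The positive libraries were more alike than the negative ones. Across the 6 tested genes and both regions, the coefficient of variation between mice was larger in the negative group in 12 of 12 cases, at 10.4% to 51.1% (median 22.2%) against 4.31% to 20.7% (median 6.50%). The negative libraries of mouse 1 had the highest summed FPKM of their groups (thalamus 2344483, spinal cord 2233820), against 984986 to 1635367 in libraries of the other mice. In both regions Gabra2 and Gabrg1 were highest and Gabrb1 lowest of the negative group in mouse 1. That animal also differed from the other 3 in Xist, at 175 to 468 FPKM against 0.171 to 1.46 FPKM.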
